A study of Mus musculus with 4 samples.

Results

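The genes described here encode proteins that hold epithelial cells together and proteins that mark or drive epithelial-mesenchymal transition (EMT), the change from joined, polarised cells to loose, migratory ones. They are Cdh1, Cdh2, Cdh3, Epcam, Cldn4, Cldn7, Rab25, Snai1, Snai2 and Vim. The members were all probe sets whose platform annotation names exactly 1 of these symbols, which gave 16 probe sets for 10 genes, out of 34945 named probe sets for 18193 genes in all. The samples were mouse embryonic stem (ES) cells, which renew themselves and derive from the early embryo, profiled on 4 Affymetrix expression arrays, with 1 array per group.

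Of the 4 samples, 1 is a constitutive Ring1B knockout (KO) by its label, and its control is labelled wild-type. Another is a conditional KO of both Ring1A and Ring1B, taken on day 4, and its control is also labelled wild-type. Conditional cells, made with OHT, were used because a constitutive double KO could not be maintained. Ring1A (gene Ring1) and Ring1B (gene Rnf2) are the RING-finger subunits of Polycomb repressive complex 1, a repressor of developmental genes. No difference below has a replicate check or a test, because each group has a lone array, and the precision is limited by that number. The labels give no strain, clone or feeder layer. Whether the double KO control is the same conditional line without OHT is not given either, and its label gives no day. All signals below are scaled to a common 2%-trimmed mean, a log2 difference is the KO label minus the label of its own control, and "at least 2-fold" marks a difference of 1 or more on the log2 scale. Signals under 36.6 were set to this floor, and a difference from the floor is a lower bound.

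Epithelial cells adhere through cadherins, which bind the same cadherin on a neighbouring cell and couple to actin through catenins, and seal the space between them with claudins in tight junctions. ES cells are themselves joined by E-cadherin (Cdh1) and carry Epcam on their surface. In EMT, zinc finger repressors of the Snail family (Snai1, Snai2) bind E-box sequences in epithelial gene promoters, E-cadherin gives way to N-cadherin (Cdh2), and the intermediate filament protein vimentin (Vim) accumulates. P-cadherin (Cdh3) is a cadherin of basal epithelia and placenta, and Rab25 is an epithelial small GTPase of the Rab11 family that recycles membrane proteins to the cell surface.

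Promoters of 6 of the 10 genes were in the RefSeq promoter table used here (GRCm38.p6), which holds none for Cdh1, Cdh2, Cdh3 or Snai2 under these symbols. The letters CACCTG and their reverse complement CAGGTG, the E-box form that Snail and Zeb repressors recognise, were searched on both strands in the 250 bases before each start site, where these spellings cannot overlap each other. They occurred in 5 of 7 promoter entries of these genes, against 17.2% of 32851 entries of all genes. Epcam, Rab25, Cldn4 and Snai1 are shown with these letters in capitals, because the first 3 are epithelial genes and Snai1 encodes a factor that reads the E-box. The stretches are chr17:87635729-87635978 on the plus strand (Epcam), chr3:88548280-88548529 on the minus strand (Rab25), chr5:134946935-134947184 on the minus strand (Cldn4) and chr2:167537945-167538194 on the plus strand (Snai1).
Epcam: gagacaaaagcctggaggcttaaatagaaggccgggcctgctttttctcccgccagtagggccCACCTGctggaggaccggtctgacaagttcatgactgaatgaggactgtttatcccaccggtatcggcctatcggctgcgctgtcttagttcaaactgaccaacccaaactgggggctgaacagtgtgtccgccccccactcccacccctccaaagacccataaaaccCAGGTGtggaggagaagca
Rab25: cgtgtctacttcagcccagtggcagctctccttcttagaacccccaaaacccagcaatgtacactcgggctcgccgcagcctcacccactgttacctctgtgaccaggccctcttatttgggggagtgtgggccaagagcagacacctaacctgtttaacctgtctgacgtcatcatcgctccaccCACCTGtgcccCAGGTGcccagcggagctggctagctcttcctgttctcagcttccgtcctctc
Cldn4: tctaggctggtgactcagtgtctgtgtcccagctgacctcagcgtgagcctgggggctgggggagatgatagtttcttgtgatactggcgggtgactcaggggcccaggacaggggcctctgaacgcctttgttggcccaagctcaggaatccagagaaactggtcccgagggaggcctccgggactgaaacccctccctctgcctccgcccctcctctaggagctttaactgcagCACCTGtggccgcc
Snai1: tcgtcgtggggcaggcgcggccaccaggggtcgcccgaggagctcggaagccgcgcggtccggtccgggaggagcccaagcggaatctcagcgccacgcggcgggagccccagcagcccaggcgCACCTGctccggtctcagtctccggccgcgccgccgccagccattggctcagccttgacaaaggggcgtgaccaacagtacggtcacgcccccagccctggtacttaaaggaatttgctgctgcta
In Rab25 the letters stand 64 and 53 bases before the start, in Epcam 187 and 19 bases, in Cldn4 14 bases and in Snai1 126 bases, counted from the first letter. The Vim entry and the upstream Cldn7 entry hold no match in this window, and the other Cldn7 entry holds 2. A match is a description of the letters and not a measured binding site, and no binding was measured here.

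The arrays were checked against their labels first. The brightest Rnf2 probe set (1424873_at) read 2775 on the array labelled Ring1B KO, against 2579.7 on the array labelled its control. In the double KO pair the signals were 1986 by the double KO label, against 2182 for its control. Ring1 (1422647_at) read 164 and 146 in the first pair and 55.6 and 44.7 in the second. Neither target was 2-fold lower on an array labelled KO. Whether these probe sets lie in the deleted exons is not known here, so the arrays are called by their labels. All 8 ES cell markers examined were above the floor on all 4 arrays. The deposited trimmed means were 500.003 on both arrays of the Ring1B pair, against 147 for the double KO label and 160.4 for its control. Log2 signals correlated at r = 0.982 and 0.973 within the pairs and at 0.941 to 0.953 across them.

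On the array labelled Ring1B KO, the adhesion genes Cldn4 and Cdh3 and the trafficking gene Rab25 were at least 2-fold lower than on the array labelled its control, and the EMT factor gene Snai1 was at least 2-fold higher. Rab25 was at least 9.34-fold higher in the double KO comparison, and Snai1 and Snai2 were at least 2-fold lower. Cdh1 and Epcam, adhesion genes of ES cells, differed by at most 1.27-fold from the controls in either comparison at their brightest probe sets, and the dim Epcam probe set by up to 1.58-fold. The Ring1B comparison had 4 of 10 genes at least 2-fold apart, against 6.17% of 12366 genes above the floor on at least 1 array. The double KO comparison had 3 of 10, against 13.0% of 12384 genes. The members were chosen with earlier results of these data known, so these counts are a description and no test of the group. By direction, 1 gene was higher and 3 were lower in the Ring1B comparison, against 3.57% and 2.60% of all genes. In the double KO comparison 1 was higher and 2 were lower, against 2.996% and 10.03%. The median log2 difference of the 10 genes was −0.33 in the Ring1B comparison and −0.39 in the double KO comparison, against −0.02 and −0.05 over all genes tested.

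**Figure D1:**
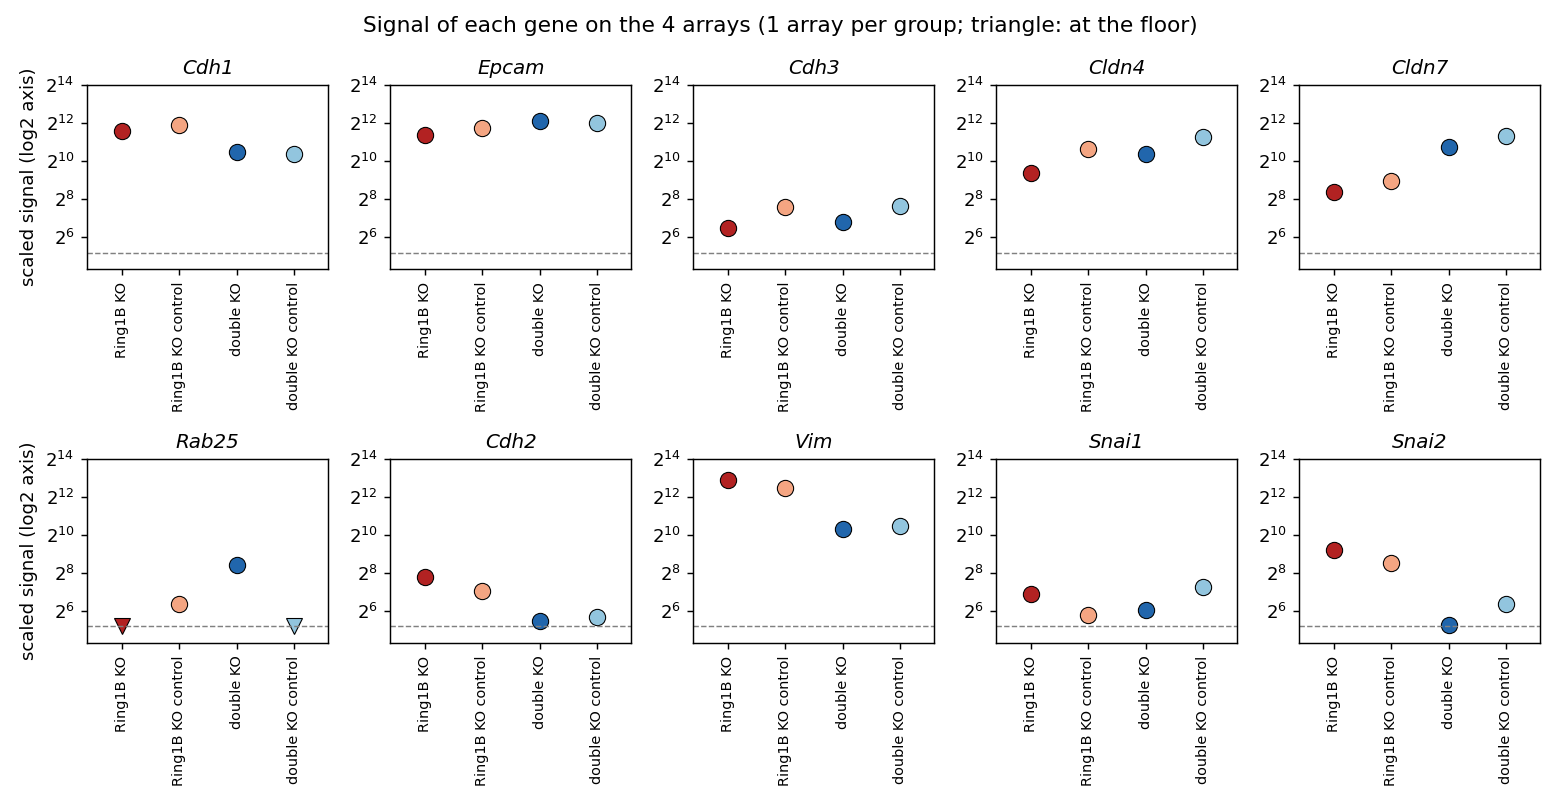
Scaled signal (log2 axis) of the brightest probe set of each of the 10 genes, with 1 point per array labelled Ring1B KO, Ring1B KO control, double KO and double KO control. The dashed line is the floor of 36.6 and triangles are signals at it. Rab25 is above the floor on the arrays labelled Ring1B KO control (81.7) and double KO (342), and Vim, Cdh2, Snai2 and Cdh1 are lower on both arrays of the double KO pair than on both of the Ring1B pair.

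E-cadherin, the calcium-dependent adhesion molecule of ES cell colonies, was measured by 1 probe set (1448261_at). Cdh1 read 3064 on the array labelled Ring1B KO, against 3806 on the array labelled its control. For the double KO label it was 1420.5, against 1324 for its control. The log2 differences were −0.31 and 0.10, and the second turned to −0.03 in the unscaled deposited values. The larger contrast lay between the pairs, since both arrays of the double KO pair read lower than both of the Ring1B pair, with the double KO control label 2.87-fold below the Ring1B KO control label. These contrasts between pairs depend on the scaling, which raised each difference between control arrays above the floor by 1.64 on the log2 scale over the deposited values.

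Epcam, a surface glycoprotein of epithelia and ES cells, differed little within the pairs. Its bright probe set (1416579_a_at) read 2664 on the array labelled Ring1B KO, against 3390.5 on the array labelled its control. In the double KO pair the signals were 4335 by the double KO label, against 4033 for its control. The differences were −0.35 and 0.10, and the second turned to −0.02 under quantile normalization and in the deposited values. The dim Epcam probe set (1447899_x_at) was lower by both labels, at 149.7 against 237 and at 115 against 143. Between the control arrays the bright probe set differed by 0.25, with the double KO control higher, and by −1.39 in the deposited values.

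P-cadherin and the claudins had lower signals on the array labelled KO in each pair. Cdh3 (1426673_at) read 87.9 on the array labelled Ring1B KO, against 190.3 on the array labelled its control, a 2.16-fold lower signal. For the double KO label it was 113, against 199 for its control, which was 1.77-fold lower. The other Cdh3 probe set (1441255_at) stayed under the floor everywhere and gives no difference. Averaged with it, Cdh3 was at −0.56 in the Ring1B comparison, under 2-fold. As scaled here, Cdh3 is the member whose controls were most alike, 1.05-fold apart. In the deposited values its controls differed by −1.57 on the log2 scale.

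Cldn4, a claudin of simple epithelia, read 659 on the array labelled Ring1B KO, against 1593 on the array labelled its control. In the double KO pair the signals were 1307 by the double KO label, against 2449.8 for its control. It was 2.42-fold lower in the first comparison, the lowest measured log2 difference among the 10 genes there, and 1.87-fold lower in the second (−0.91, or −1.02 under quantile normalization). Cldn7, which also binds Epcam at the lateral membrane, read 329 against 503 in the Ring1B pair and 1727 against 2532 in the double KO pair, 1.53-fold and 1.47-fold lower. Cldn7 read higher on both arrays of the double KO pair than on both of the Ring1B pair, and the controls were 5.04-fold apart.

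Cdh3, Cldn4 and Cldn7 were thus the 3 genes with the same direction in both comparisons, and the other 7 had opposite directions. Opposite directions were common on these arrays, at 62.1% of 11611 genes tested in both comparisons, so the count of 7 of 10 is near that share. A difference of at least 2-fold in both comparisons with opposite signs was found for Rab25 and Snai1, against 2.69% of those genes. No member was at least 2-fold apart in the same direction in both, as 0.112% of those genes were.

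Rab25 had the largest difference of the 10 genes. Its probe set (1417738_at) read 4.82 on the array labelled Ring1B KO, against 81.7 on its control. The array labelled double KO read 342, against 12.1 on its control. The values 4.82 and 12.1 are under the floor. It was at least 2.23-fold lower in the Ring1B comparison and at least 9.34-fold higher in the double KO comparison, where its bound ranked 6 from the top among 12384 genes. The bound follows the floor: on the log2 scale it was 3.22, but 4.82 with the floor at the 20th percentile and 1.43 at the 60th. With the controls exchanged, Rab25 was at the floor on both arrays of the Ring1B comparison, which gives no difference. For the double KO label it was then 4.18-fold higher.

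**Figure D2:**
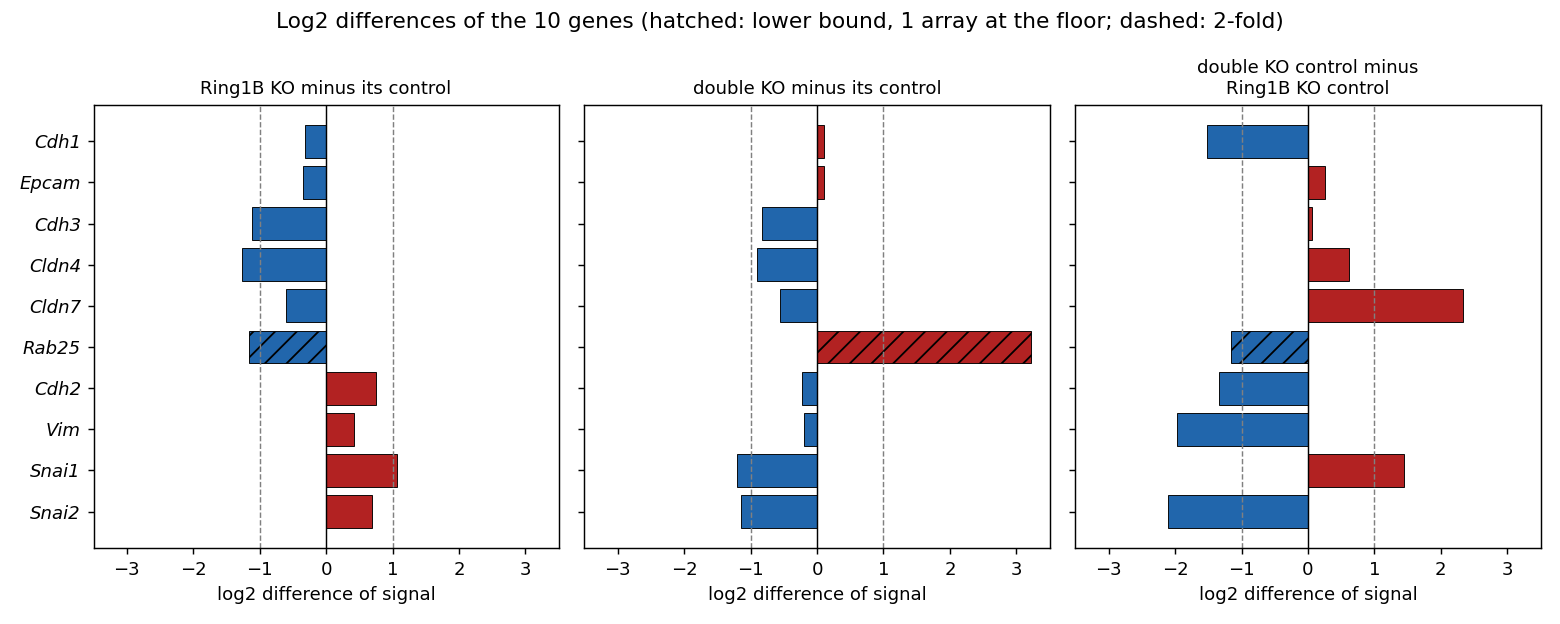
Log2 differences of signal for the 10 genes (rows) in the array labelled Ring1B KO minus its control, the array labelled double KO minus its control, and the array labelled double KO control minus the array labelled Ring1B KO control. Hatched bars are lower bounds and dashed lines mark 2-fold. The Rab25 bars point to −1.16 and 3.22, and the control arrays themselves differed at least 2-fold for 7 of the 10 genes.

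Snai1 and Snai2, repressors that drive EMT in the embryo, shared their directions. Snai1 (1448742_at) read 118 on the array labelled Ring1B KO, against 55.9 on the array labelled its control. For the double KO label it was 66.2, against 152 for its control. It was 2.10-fold higher in the Ring1B comparison and 2.30-fold lower in the double KO comparison (−1.20, or −0.89 under quantile normalization). The control arrays differed by 1.45 for Snai1 as scaled here and by −0.19 in the deposited values, and with the controls exchanged between the pairs its differences were −0.37 and 0.24, the opposite directions.

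Snai2 at its brightest probe set (1447643_x_at) read 586 on the array labelled Ring1B KO, against 363 on the array labelled its control. In the double KO pair the signals were 37.9 by the double KO label, against 83.9 for its control. It was 1.61-fold higher in the Ring1B comparison and 2.21-fold lower in the double KO comparison (−1.15, or −0.92 under quantile normalization). The probe set 1418673_at gave 200.3 against 92.7 in the Ring1B pair, 2.16-fold higher, and was at the floor on both arrays of the double KO pair. A name ending in _x_at marks a probe set that can match other transcripts. The mean over both probe sets was −0.57 in the double KO comparison, under 2-fold.

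N-cadherin, the mesenchymal and neural cadherin, was higher on the array labelled Ring1B KO. Cdh2 (1418815_at) read 219 there, against 130.3 on the array labelled its control, which was 1.68-fold, and the probe set 1449244_at read 142 against 53.6, which was 2.64-fold. In the double KO pair both probe sets read near the floor, at 43.9 against 51.5 and at 45.8 against 76.0, and the first difference (−0.23) turned to 0.01 under quantile normalization.

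Vimentin, the intermediate filament protein of mesenchymal cells, was measured by 3 probe sets. At the brightest, 1450641_at, Vim read 7500.05 on the array labelled Ring1B KO, against 5609.8 on the array labelled its control. For the double KO label it was 1246, against 1428 for its control. The log2 differences at the 3 probe sets lay between 0.37 and 0.53 in the Ring1B comparison and between −0.37 and −0.13 in the double KO comparison, all under 2-fold. The pairs stood much further apart, as the double KO control minus the Ring1B KO control was −1.97, −3.20 and −2.76 at 1450641_at, 1438118_x_at and 1456292_a_at.

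**Figure D3:**
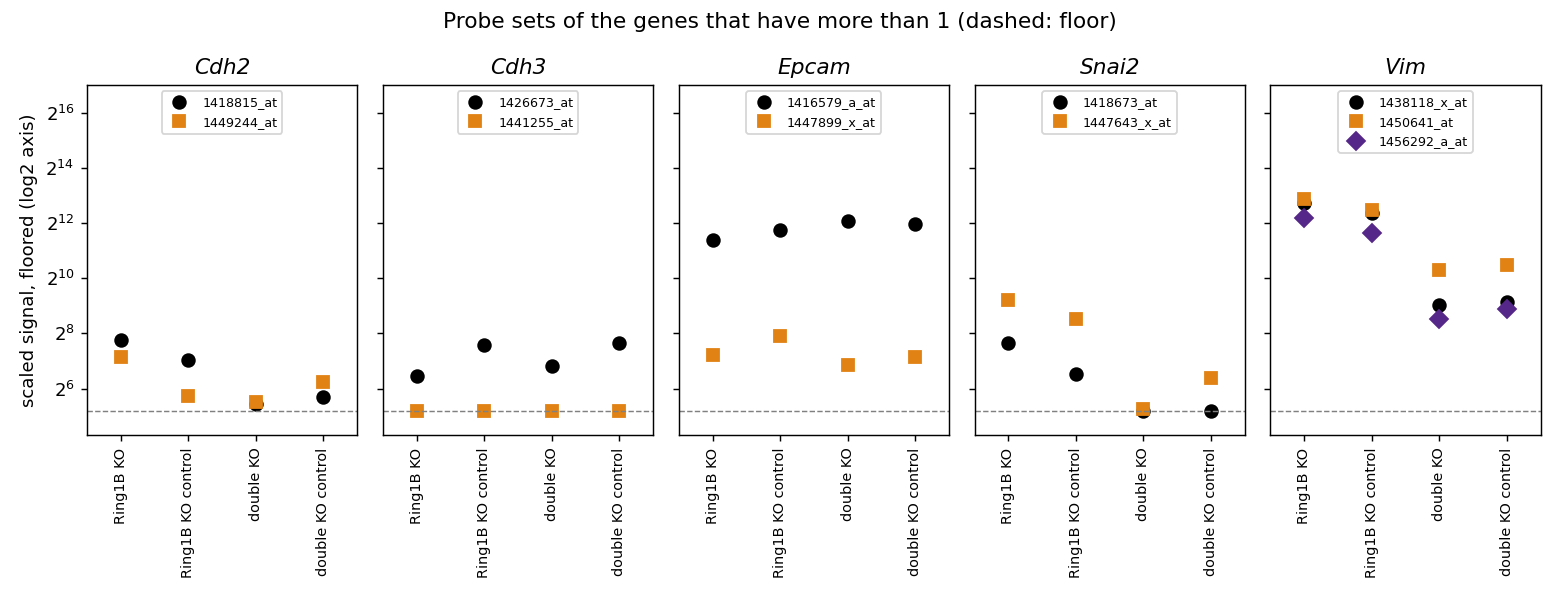
Scaled, floored signal (log2 axis) of every probe set of the 5 genes with more than 1, with 1 point per probe set on the arrays labelled Ring1B KO, Ring1B KO control, double KO and double KO control. The dashed line is the floor. All 3 Vim probe sets are lower on both arrays of the double KO pair, and the Snai2 probe set 1418673_at is at the floor on both.

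Across the pairs, 6 of 10 genes did not overlap at their brightest probe sets. There Cdh1, Cdh2, Snai2 and Vim were lower on both arrays of the double KO pair than on both of the Ring1B pair, and Epcam and Cldn7 were higher on both. The dim Epcam probe set was lower on both arrays of the double KO pair, the reverse direction, and the other Cdh2 probe set overlapped. Over all genes above the floor on at least 1 array, 53.6% did not overlap, 22.9% with the double KO pair below and 30.7% with it above, so 6 of 10 is near the background. Between the control arrays, 7 of the 10 were at least 2-fold apart, against 20.4% of 12692 genes. Cldn7 and Snai1 were higher on the double KO control, against 12.2% of genes, and 5 were lower, against 8.19%. In the deposited values 0 were higher and 8 lower, with Cldn7 at 0.69 and Snai1 at −0.19. With the controls exchanged, 4 genes were higher and 3 lower for the Ring1B KO label (19.2% of all genes in either direction, 8.04% higher and 11.2% lower), and 2 higher and 4 lower for the double KO label (17.7%, 7.83% higher and 9.92% lower). Signals of the pairs were brought to a common mean only here, and the line, culture and array run of the pairs cannot be told apart.

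Related genes are given from lists that hold none of the 10. Of 27 mesenchymal genes for cytoskeleton, matrix and receptors, 4 were higher by at least 2-fold in the Ring1B comparison and none was lower, and 25 of 27 had a positive difference, with a median of 0.50, where 48.2% of all genes had a positive difference. Pdgfra, a growth factor receptor that is also among the endoderm markers below, was 4.92-fold higher (1247 against 253), and the matrix protein gene Tgfbi 2.69-fold. For the double KO label 19 of the 27 were at least 2-fold lower, none was higher, and the median was −1.40. That median was −0.81 with the mean over the probe sets of a gene. Tgfbi was 5.29-fold lower (54.9 against 290.5), and Nes, an intermediate filament gene that is also among the neural markers below, was at least 4.28-fold lower (16.2, under the floor, against 157). With the controls exchanged, Tgfbi was at −0.33 in the Ring1B comparison and −0.65 in the double KO comparison. Nes was then at least 1.73-fold lower in the double KO comparison. Pdgfra stayed higher in the Ring1B comparison, at 3.46, and the list medians were 0.63 and −1.19. Fn1, the fibronectin gene, stood apart at 4431 against 5024 and at 6222 against 5108. The higher share of all genes was 3.57% in the Ring1B comparison, and the lower share was 10.03% in the double KO comparison.

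Of the other EMT transcription factor genes, 11 were tested in the Ring1B comparison, where 2 were higher by at least 2-fold, against 3.57% of all genes, and none was lower, namely Twist1 (3.05-fold, 114 against 37.3) and Foxc2 (2.15-fold, 83.1 against 38.6). Of 12 in the double KO comparison, 6 were lower by at least 2-fold, against 10.03% of all genes, and none was higher, led by the mesenchymal homeobox genes Prrx1 (3.57-fold, 63.7 against 228) and Prrx2 (3.52-fold, 52.4 against 184). Twist1 was among them, at 43.6 against 122. The Ring1B KO control signals of Twist1 and Foxc2 were near the floor of 36.6. With the controls exchanged, Twist1 was at −0.09 in the Ring1B comparison and 0.22 in the double KO comparison. Foxc2 was then at 0.59 in the Ring1B comparison. Prrx1 and Prrx2 stayed lower in the double KO comparison, at −1.70 and −1.89. Snai3, the remaining Snail gene, chosen after its values were seen, was lower in both comparisons, at 119 against 200.4 and at 149.5 against 343. The median of the list was 0.38 in the Ring1B comparison, but −0.02 with the controls exchanged. It was −0.89 in the double KO comparison, but −0.29 with the floor at the 60th percentile and −0.32 with the controls exchanged. Zeb1, a repressor that reads the same E-box as Snail, read 367 against 289 in the Ring1B pair and 101 against 129.5 in the double KO pair. Zeb2 read 60.3 against 42.7 in the Ring1B pair and was at the floor on both arrays of the double KO pair.

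**Figure D4:**
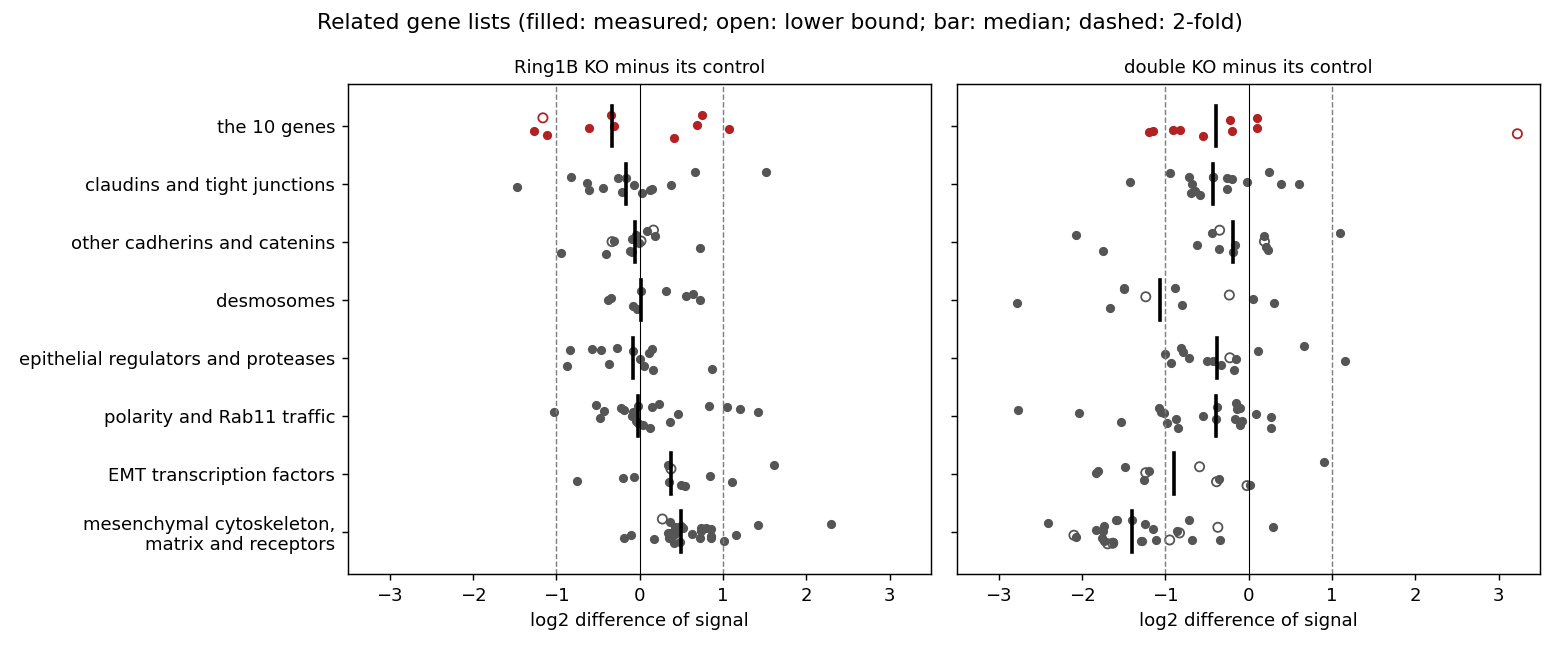
Log2 difference of signal (x axis) for each gene of the 10 and of 7 related lists (rows), in the array labelled Ring1B KO minus its control and in the array labelled double KO minus its control. Filled points are measured, open points are lower bounds and black bars are medians. The mesenchymal list has its median at 0.50 on one side and at −1.40 on the other, and the claudin and cadherin medians lie closer to 0.

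Of the tight junction list, 15 genes were tested in the Ring1B comparison, where Jam3, a junctional adhesion molecule, was 2.86-fold higher (442 against 155) and Tjp3, a scaffold, 2.77-fold lower (86.7 against 240.3). Of 16 in the double KO comparison, only Cldn3 was at least 2-fold apart, 2.68-fold lower (306 against 819). Over all genes, 6.17% were at least 2-fold apart in the Ring1B comparison and 13.0% in the double KO comparison. Tjp1, the scaffold ZO-1, read 2192 against 2155 and 1750.5 against 2017, and the occludin gene Ocln 137 against 143 and 80.7 against 155. The median of this list was −0.16 in the Ring1B comparison and −0.43 in the double KO comparison, and with the controls exchanged it was −0.79 and 0.22.

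The catenins, which tie cadherins to actin, stayed close to their controls. Ctnnb1 read 7978 against 8508 in the Ring1B pair and 10119 against 8806 in the double KO pair. Ctnna1 read 5519 against 5900.4 and 6083 against 6845, and Jup (plakoglobin) 333 against 345 and 496 against 566. None of 15 genes of the cadherin and catenin list was 2-fold apart in the Ring1B comparison, where 6.17% of all genes were. Of 13 in the double KO comparison, Nectin3 was 2.14-fold higher (473 against 221), and Cdh4 (4.21-fold, 50.5 against 213) and Cdh11 (3.36-fold, 63.9 against 215) were lower. Cdh11, a mesenchymal cadherin, read 651 against 392 in the Ring1B pair.

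Desmosomes, the spot junctions that anchor keratin filaments, had 5 of 10 genes lower by at least 2-fold in the double KO comparison and none higher, where 10.03% of all genes were lower, with a median of −1.06. That median was −0.44 with the floor at the 60th percentile and −0.46 with the controls exchanged. Dsp, the plaque protein desmoplakin, was 6.89-fold lower (45.4 against 313) and Evpl, envoplakin, 3.17-fold lower (54.3 against 172). None of 9 was 2-fold apart in the Ring1B comparison. Of the epithelial regulators and proteases, none of 13 was 2-fold apart in the Ring1B comparison, where 6.17% of all genes were. Among 14 in the double KO comparison, Grhl2, an activator of Cdh1 and claudin genes, was 2.22-fold higher (1430.3 against 645) and Grhl1 2.01-fold lower (165 against 331). Esrp1, an epithelial splicing factor, read 382 against 681 and 1536 against 1426. The list median of −0.38 in the double KO comparison turned to 0.98 with the controls exchanged. All 14 epithelial regulators were higher on the double KO control than on the Ring1B KO control as scaled here, 9 of them at least 2-fold, against 12.2% of all genes. Their median difference between the controls was 1.12, against 0.13 over all genes. The scaling raised each such difference above the floor by 1.64, so this direction depends on it.

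Polarity and Rab11 traffic genes include partners of the Rab11 family to which Rab25 belongs. Rab11fip5, a Rab11 effector, was 2.68-fold higher (668 against 249) in the Ring1B comparison and 4.10-fold lower (95.8 against 392) in the double KO comparison. Myo5b, the motor that carries Rab11 vesicles, was 2.31-fold higher (101 against 43.7) and 6.82-fold lower (46.2 against 315). Both had the opposite directions to Rab25 against their own controls. With the controls exchanged, Rab11fip5 was at 0.77 and −1.38 on the log2 scale, and Myo5b at −1.64 and 0.08. In all, 3 of 21 genes were at least 2-fold higher and 1 lower, Crb3 (2.03-fold, 149 against 302), in the Ring1B comparison, against 3.57% and 2.60% of all genes. Of 22 in the double KO comparison, 6 were lower by at least 2-fold, against 10.03%, and none was higher. The list median of −0.39 there turned to 0.34 with the controls exchanged.

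Marker signals of other cell types are given next. The summed signal of 12 fibroblast markers was 11220 on the array labelled Ring1B KO, against 7381 on the array labelled its control. It was 1279 for the double KO label, against 4569 for its control. Of the 12 markers, 10 were lower by at least 2-fold in the double KO comparison, against 10.03% of all genes. In the Ring1B comparison none of 11 was 2-fold apart, as 6.17% of all genes were. Of these markers, 7 also stand in the mesenchymal list. Lum was under the floor on all arrays but the array labelled double KO control, and Pdgfrb only on the array labelled double KO.

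The 11 markers of primitive and visceral endoderm, an epithelium that ES cells can form, summed to 16576 on the array labelled Ring1B KO, against 4923 on the array labelled its control. The sum was 1701 for the double KO label, against 3753 for its control. At least 2-fold higher were 9 of 10 in the Ring1B comparison, against 3.57% of all genes. At least 2-fold lower were 5 of 9 in the double KO comparison, against 10.03%. Afp was under the floor on all 4 arrays. The 7 trophoblast markers summed to 1083 against 1734 in the Ring1B pair, where their median difference was 0.12. Of 6 tested there, only Tfap2c was at least 2-fold apart. It was 2.16-fold lower (692 against 1496), as at least 2-fold lower were 2.60% of all genes. The trophoblast sum was 689.6 against 1955 in the double KO pair. There 4 of 6 were at least 2-fold lower, against 10.03% of all genes. Elf5 was under the floor on all 4 arrays. Neural markers summed to 426 against 452 and to 332 against 425, and mesoderm markers to 196 against 202 and to 133 against 182. Of 3 neural markers tested for the double KO label, 1 was at least 2-fold higher and 2 lower, against 2.996% and 10.03% of genes. Tubb3 was the higher one (243 against 96.2), and Pax6 and Nes were lower. The ES cell markers summed to 32128 against 40217.5 and to 40844 against 25747. Their part in the results was not tested, and in bulk RNA fewer cells of a type and less RNA per cell cannot be told apart.

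**Figure D5:**
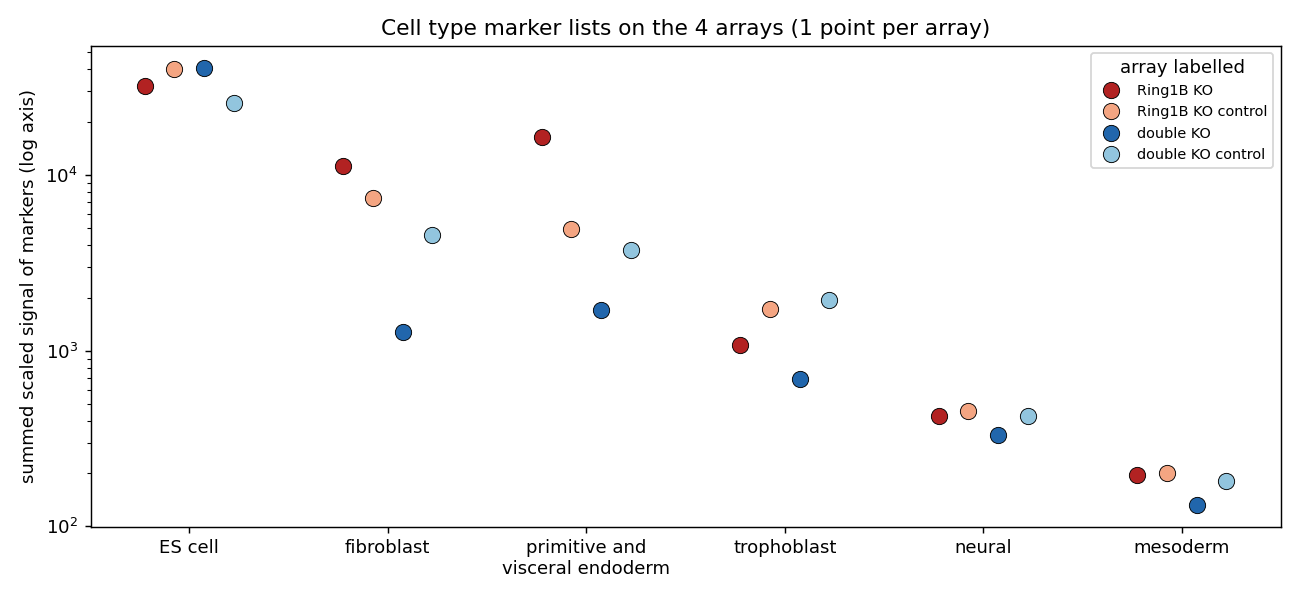
Summed scaled signal (log axis) of marker lists for 6 cell types, with 1 point per array labelled Ring1B KO, Ring1B KO control, double KO and double KO control. Fibroblast markers are lowest on the array labelled double KO (1279) and endoderm markers highest on the array labelled Ring1B KO (16576).

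The genes whose centred log2 signals over the 4 arrays lay nearest to those of the members were named for each member at least 2-fold apart in either comparison, out of 10292 genes above the floor on all arrays. With 4 points these distances are a description only. Snai1 lay nearest to Tnfaip3 (Euclidean distance 0.0520 on the log2 scale) and to the matrix gene Sparc (0.12). Snai2 lay nearest to F2r (0.23) and Cav1 (0.24), Cldn4 to Kank1 (0.18) and Reep6 (0.22), and Cdh3 to Macrod1 and Rbks (0.21 each). Rab25 was under the floor on 2 arrays, so its profile follows the floor and its nearest genes are not given.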

How the data were processed

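Total RNA of 4 ES cell samples was labelled with biotin and hybridised to 1 array each. The authors deposited, for each of 45101 probe sets, a linear intensity; the submitters' processing notes name MAS5, and its version and settings are not given in the sources used here. MAS5 combines perfect-match and mismatch probes and rescales within an array, and the deposited pairs had no common mean. Each array was therefore multiplied to a common 2%-trimmed mean of 277 (factors 0.554 and 0.554 for the Ring1B pair, 1.89 and 1.73 for the arrays labelled double KO and double KO control), floored at 36.6, the 40th percentile of named probe sets, and log2-transformed. No detection calls were used and saturation was not assessed. Flooring shrinks differences of dim genes.

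Names came from the platform annotation: 34958 probe sets had 1 symbol, 932 had several and 9211 had none here. Of those with 1 symbol, 13 manufacturer's controls were left out. Entrez identifiers of 34754 matched the RefSeq gene table (GRCm38.p6), which changed 0 symbols. The brightest probe set stood for a gene with several. Named genes were all members with all their probe sets, Ring1 and Rnf2, up to 2 per direction of each of 7 lists past 2-fold in each comparison, 12 junction and EMT genes in every case, and nearest profiles, not given for Rab25. The members and lists were chosen with earlier results of these data known. Of 151 list genes, 143 had a name on the array. No test was possible. The steps were tested on simulated data. Alternatives changed the scaling, floor, probe set rule, fold threshold and control array. Python 3.11.15, numpy 2.4.6, pandas 2.3.3 and scipy 1.17.1 were used.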

Additional observations from a re-analysis of the deposited data

Results flagged for a closer look

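For 7 of the 10 genes the array labelled Ring1B KO and the array labelled double KO differed from their own controls in opposite directions. That count is near the share of all genes, 62.1% of 11611 genes tested in both comparisons. The difference between the comparisons was not tested, since each rests on 1 array per group. As the double KO change minus the Ring1B change on the log2 scale, it was at least 4.38 for Rab25, a bound set by the floor since both of its changes are bounds, −2.28 for Snai1 and −1.84 for Snai2. It was −0.97 for Cdh2, −0.62 for Vim, 0.45 for Epcam and 0.41 for Cdh1. Of these, Rab25, Snai1 and Snai2 were past 2-fold, against 21.9% of 13139 genes.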

How the results depend on the processing

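The counts below are of genes at least 2-fold apart among the 10 (1 higher and 3 lower in the Ring1B comparison, 1 and 2 in the double KO comparison) and among the related lists (10 and 2, then 2 and 40). With the values as deposited, the lists had 1 higher in the double KO comparison, the 10 genes had 0 higher and 8 lower between the controls with a median of −2.26, and Snai1 turned to −0.19 there, which is the scaling itself. The median of all genes above the floor on both arrays then moved to −0.15 in the double KO comparison, against −0.02 as scaled. Under quantile normalization 1 of the 10 was lower in the double KO comparison. A floor at the 20th percentile gave 5 list genes higher in the double KO comparison. A floor at the 60th left 0 higher and 1 lower of the 10 and 4 and 1 of the lists in the Ring1B comparison, 0 of the 10 and 25 of the lists lower in the double KO comparison, 1 higher and 3 lower between the controls with a median of 0.068, and 1 gene at least 2-fold apart between the comparisons, with fewer genes tested. The mean over probe sets gave 2 higher of the 10 and 6 of the lists in the Ring1B comparison, and 1 lower of the 10 and 0 higher and 24 lower of the lists in the double KO comparison. Without _s_at, _x_at and _a_at probe sets, 2 of the 10 were higher in the Ring1B comparison, 1 was lower in the double KO comparison and the control median was −1.16. With the controls exchanged, the Ring1B comparison had 4 of the 10 higher, Snai1 at −0.37 and 34 list genes lower, and the double KO comparison had 2 higher and 4 lower of the 10, Snai1 at 0.24, and 12 higher and 26 lower of the lists. At 1.5-fold, 3 of the 10 were higher and 25 and 9 list genes were higher and lower in the Ring1B comparison, and 4 of the 10 were lower and 5 and 61 list genes were higher and lower in the double KO comparison. The mesenchymal median in the double KO comparison (−1.40) was −1.15 under quantile normalization and −1.13 once floored at the 60th percentile. Counts over all genes moved with the setting as well. In the Ring1B comparison, 441 were higher and 322 lower as scaled here. With the floor at the 20th percentile they were 893 and 772, and at the 60th 172 and 152. With the mean over probe sets they were 318 and 220. In the double KO comparison, 371 were higher and 1242 lower. In the same order of settings they were 939 and 2205, 218 and 531, and 268 and 865. All-gene counts at 1.5-fold are not given here. Where no construction is named, the cause was not tested. No paired analysis was possible because each group has 1 array. Signal near the floor limits Rab25, Cdh2, Snai1, Snai2 and Cdh3.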
